A study of Mus musculus with 3 samples.

Results

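The miR-378 family is a group of miRNAs that are made in abundance in skeletal muscle, heart and brown fat. Its members were taken here by name from the deposited lists of mature miRNAs. They are both arms of miR-378a (mmu-miR-378a-3p and mmu-miR-378a-5p), mmu-miR-378b, mmu-miR-378c and mmu-miR-378d, written below without the prefix for the mouse, and all 5 of 5 names were found among 1138 listed miRNAs. Small RNA sequencing covered RNAs of 18 to 30 nucleotides of tibialis anterior (TA) muscle, taken from 10-week-old C57BL/6 wildtype mice on day 0 and on days 1 and 3 post-cardiotoxin (CTX) injury. CTX is a snake venom toxin that destroys myofibers and leaves the resident stem cells to rebuild them. Every library was a pool of 4 samples and stood alone for its day, so the 3 libraries have no replicates, a difference between days has no replicate check, and the spread between mice is unknown. The day 0 muscles were uninjured by the study's account, and whether they received the saline control injection is not given in the sources used here.

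A miRNA is cut as a short duplex from a hairpin, and usually 1 arm of the duplex, the guide, is kept in the silencing complex while the other arm is largely lost. The guide pairs with target mRNAs mainly through its seed, bases 2 to 8 from the 5′ end, and lowers their translation and stability. The hairpin of miR-378a lies in an intron of Ppargc1b, on the same strand. Ppargc1b encodes PGC-1β, a coactivator of mitochondrial and fatty acid oxidation genes, and the miRNA is made along with its host transcript. Mice that lack miR-378a have been described as resistant to diet-induced obesity with raised oxidative capacity, and in myoblasts miR-378a-3p has been described to promote differentiation by repressing MyoR.

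The other hairpins of the family lie apart from Ppargc1b. Sequences for 3 of the 5 members were matched in RefSeq for build GRCm38.p6, and they are shown because reads of near-identical miRNAs can be divided among them by a counting step. The mature sequences are given 5′ to 3′ with the seed in capitals.
miR-378b: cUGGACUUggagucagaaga
miR-378c: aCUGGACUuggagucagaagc
miR-378d: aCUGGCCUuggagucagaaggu
miR-378b and miR-378c shared a run of 19 bases. miR-378b starts 1 base later, and over the 20 aligned bases the change from miR-378c to miR-378b was C21A, with positions counted from the 5′ end of miR-378c. With this offset the seeds of the pair differ. Against miR-378c, miR-378d carried A6C, inside the seed, and C21G near the 3′ end, with 19 of 21 aligned bases identical. Whether a read that fits more than 1 member was divided, counted for each or dropped is not given in the sources used here, and every value of miR-378b, miR-378c and miR-378d, and of miR-378a-3p as their close relative, is subject to that step.

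The precursors are shown with the mature miRNA in capitals, because they place the mature sequence on different arms.
Mir378b: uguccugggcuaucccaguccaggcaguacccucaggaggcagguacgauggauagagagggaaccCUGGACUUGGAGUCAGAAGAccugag
Mir378c: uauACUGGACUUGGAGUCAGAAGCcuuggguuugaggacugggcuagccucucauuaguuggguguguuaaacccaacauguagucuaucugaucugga
Mir378d: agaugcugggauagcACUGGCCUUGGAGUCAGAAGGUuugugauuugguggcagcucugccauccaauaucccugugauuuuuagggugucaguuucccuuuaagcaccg
miR-378b lies on the 3′ arm, at bases 67 to 86 of its hairpin. miR-378c, at bases 4 to 24, and miR-378d, at bases 16 to 37, lie on the 5′ arm. Mir378b is at chr11:88352773-88352864 on the plus strand of GRCm38.p6, in an intron of Msi2 and antisense to it. Mir378c is at chr14:46954830-46954928 on the minus strand, in an intron of Samd4 and antisense to it. Mir378d is at chr10:126710282-126710391 on the minus strand, within no annotated gene of GENCODE M21, and the nearest protein-coding gene, Atp23, is 158036 bases away.

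The libraries held between 6421056 reads (day 1) and 9795076 reads (day 3), with 784 to 987 miRNAs detected. Levels are given as CPM, counts per 1000000 miRNA reads of the library, with 95% Wilson intervals, and changes as log2 ratios of CPM with 95% Wald intervals. Both kinds of interval cover counting error only and treat reads as independent. PCR reads are not independent molecules, so the intervals may be too narrow, and they do not cover the spread between mice. A CPM is a share, and the shares were far from balanced, with the 10 most abundant miRNAs holding 78.4%, 61.6% and 64.1% of reads on days 0, 1 and 3. Over the miRNAs with at least 10 reads in either library, the median log2 ratio was 1.28 at day 1 (532 miRNAs) and 1.47 at day 3 (569 miRNAs) relative to day 0. With edgeR's TMM factors every log2 ratio was shifted by -0.94 at day 1 and by -0.93 at day 3. Relative to day 0, a drop in CPM was the smallest drop among the scalings of the reads that were tried, and the position of each member among all miRNAs does not depend on the scaling.

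miR-378a-3p, the guide arm, was among the leading miRNAs of uninjured muscle and was lower at each later time point. It was counted in 796049, 367366 and 218035 reads on days 0, 1 and 3. These gave 93569 CPM before injury (93374 to 93765), 57213 CPM a day after it (57033 to 57393) and 22260 CPM by day 3 (22167 to 22352). It therefore made up 9.36% of all miRNA reads before injury and 2.23% on day 3, and its rank by abundance went from 3 to 5 to 13. The log2 ratio to day 0 was -0.71 at day 1 (-0.72 to -0.70) and -2.07 at day 3 (-2.08 to -2.06). From day 1 to day 3 it was -1.36 (-1.37 to -1.35). In the reads, 15 of the 569 miRNAs tested on day 3 had a lower ratio to day 0 than miR-378a-3p. On day 1, 83 of 532 did. Its log2 ratio minus that of the median miRNA was -1.99 at day 1 and -3.55 at day 3. A second deposited column holds expression values, which lie below the reads for abundant miRNAs. There its day 3 ratio was -0.55, and it was not among the 44 of 569 miRNAs lower by a fold of 2. Its position thus depends on the deposited column.

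miR-378a-5p, the other arm of the same hairpin, followed a different course. It was counted in 10340, 2983 and 6012 reads on days 0, 1 and 3, or 1215 CPM (1192 to 1239), 465 CPM (448 to 482) and 614 CPM (598 to 629). The level was lowest on day 1, when that of miR-378a-3p stood between its day 0 and day 3 values. The log2 ratio to day 0 was -1.39 at day 1 (-1.45 to -1.33) and -0.99 at day 3 (-1.03 to -0.94). From day 1 to day 3 the log2 ratio was 0.40 (0.34 to 0.47), while that of miR-378a-3p was negative.

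**Figure D1:**
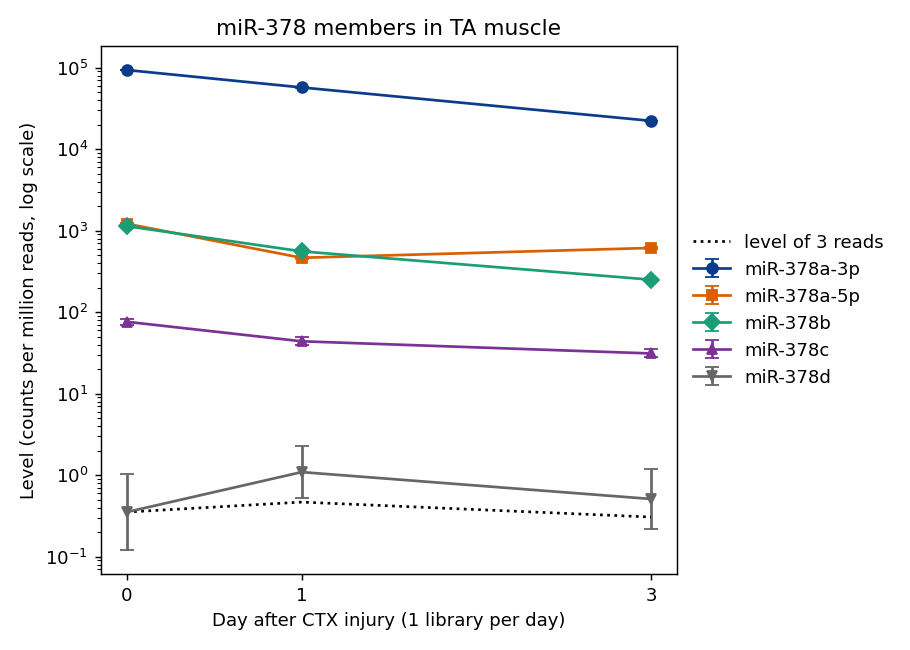
Level of each member in CPM (log axis) by day after CTX injury, 1 library per day, with bars for 95% Wilson intervals and a dotted line at the level of 3 reads. miR-378a-3p lies above all other members on each day, miR-378a-5p and miR-378b change order on day 1 and again on day 3, and miR-378d lies near the dotted line.

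miR-378b and miR-378c, the members on other chromosomes that yielded reads in number, were likewise lower on both later days, at far lower levels. miR-378b was counted in 9657, 3579 and 2453 reads on the 3 days in turn, which correspond to 1135 CPM (1113 to 1158), 557 CPM (539 to 576) and 250.4 CPM (240.7 to 260.5). Its log2 ratio to day 0 was -1.03 at day 1 (-1.08 to -0.97) and -2.18 at day 3 (-2.24 to -2.12). This was the lowest day 3 ratio of the family, with 12 of the 569 tested miRNAs below it in the reads.

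miR-378c was counted in 648, 282 and 305 reads on the 3 days in turn, or 76.2 CPM (70.5 to 82.3), 43.9 CPM (39.1 to 49.4) and 31.1 CPM (27.8 to 34.8). The day 0 interval lay above those of both later days, and the intervals of days 1 and 3 did not overlap. From day 1 to day 3 its log2 ratio was -0.50 in the reads. In the expression values that ratio was 0.10, and -0.19 when the values were scaled to their total. Its log2 ratio to day 0 was -0.79 at day 1 (-0.996 to -0.593) and -1.29 at day 3 (-1.49 to -1.09).

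miR-378d was at the limit of detection. It had 3 reads before injury (95% exact Poisson interval 0.619 to 8.77 reads), 7 on day 1 (2.81 to 14.4) and 5 by day 3 (1.62 to 11.7). The intervals overlapped on all days, and no change of miR-378d was detectable at this depth. The log2 ratio to day 0 was 1.63 at day 1 (-0.32 to 3.58) and 0.53 at day 3 (-1.53 to 2.60).

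The order of the members by level was the same on days 0 and 3, with miR-378a-3p first, then miR-378a-5p, miR-378b, miR-378c and miR-378d. On day 1 miR-378b stood above miR-378a-5p. No neighbours in these orders had overlapping counting intervals on any day, and their spread over samples is unknown.

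For counting, a miRNA was taken as changed when its CPM differed by a fold of 2 or more between a pair of libraries, among miRNAs with at least 10 reads in either of the pair. Of the 5 members, 4 reached that minimum and miR-378d did not. On day 1, 2 of the 4 were lower than on day 0 (miR-378a-5p and miR-378b), beside a background of 12.0% of all tested miRNAs. On day 3, 3 of the 4 were lower (miR-378a-3p, miR-378b and miR-378c), beside 10.0%, and the log2 ratio of -0.99 of miR-378a-5p was just short of the fold. From day 1 to day 3, 2 of the 4 were lower (miR-378a-3p and miR-378b), beside 17.7%. By the expression values neither passed the fold from day 1 to day 3, with -0.33 and -0.55, beside 9.95% of all tested miRNAs lower. On day 3 relative to day 0 miR-378a-3p did not pass it either in these values (-0.55), and miR-378b and miR-378c did, beside 7.73%. None of the 4 was higher in any of these comparisons, in which 55.3%, 58.5% and 25.0% of the tested miRNAs were. With TMM factors all 4 were lower on each day, beside 24.2% at day 1 and 22.1% at day 3, and none was higher, beside 35.2% and 37.4%. With a fold of 1.5 all 4 were lower on each day relative to day 0, beside 17.9% and 15.3%, and 2 were lower on day 3 than on day 1, beside 27.1%. When an adjusted p of 0.001 from Fisher's exact test was asked for as well, the members counted at a fold of 2 were the same. The shares of all tested miRNAs were then 8.08%, 8.44% and 13.7%. The counted member with the fewest reads, miR-378c, had 648 on day 0 and 305 on day 3. At such depths a fold of 2 passes this test, so the unchanged count adds no support. With these 4 tested members, the counts describe the family and are no test of it.

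**Figure D2:**
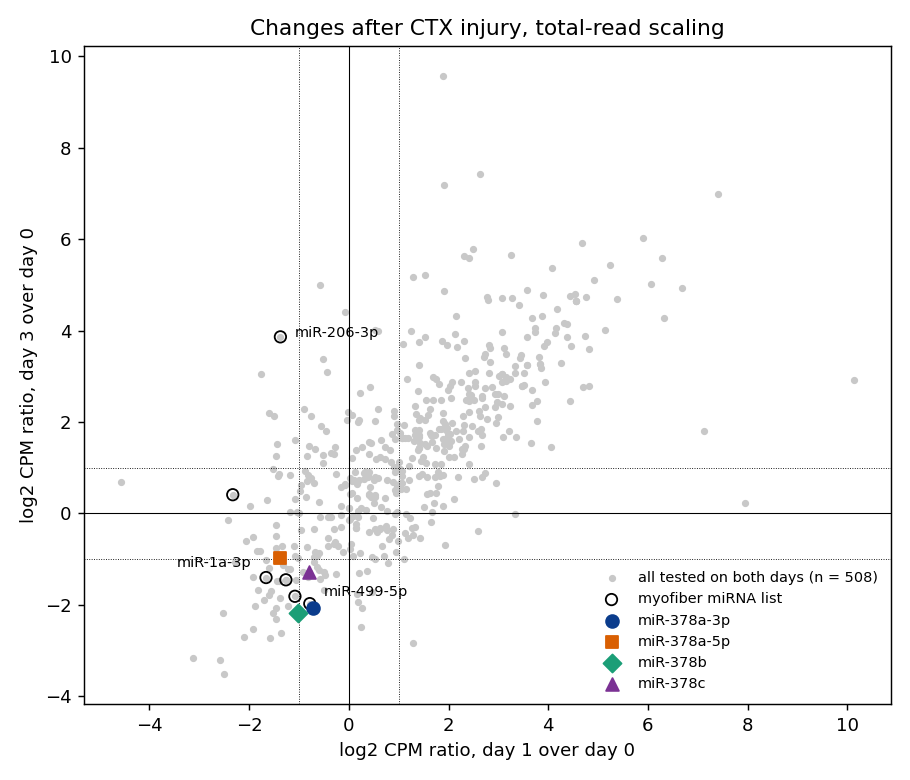
log2 CPM ratio to day 0 of each miRNA with at least 10 reads in either library of both comparisons, day 1 on the x axis and day 3 on the y axis, with dotted lines at a fold of 2. The 4 members with enough reads lie in the lower left part, where miR-1a-3p and miR-499-5p also lie, while miR-206-3p lies high on the day 3 axis.

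The scaling cancels when miRNAs are compared within a library, so differences among members do not depend on it, but they do depend on the deposited column. The log2 ratio to day 0 of miR-378b minus that of miR-378a-3p was -0.32 at day 1 (95% interval of the difference -0.37 to -0.26) and -0.11 at day 3 (-0.17 to -0.04). That of miR-378c differed from miR-378a-3p by -0.08 on day 1 (-0.29 to 0.12), an interval that includes 0, and by 0.78 on day 3 (0.58 to 0.98). Taken from the expression values, these differences from miR-378a-3p were -1.16 and -1.37 for miR-378b and -0.98 and -0.55 for miR-378c, so that of miR-378c on day 3 had the opposite sign. Of the reads of the 4 near-identical members (miR-378a-3p, miR-378b, miR-378c and miR-378d), miR-378b held 1.20% before injury (1.17 to 1.22), 0.964% on day 1 (0.933 to 0.996) and 1.11% by day 3 (1.07 to 1.16). miR-378c held 0.0804% before injury (0.0744 to 0.0868), 0.0760% on day 1 (0.0676 to 0.0854) and 0.138% by day 3 (0.123 to 0.155). In the expression values miR-378b held 5.92%, 2.75% and 2.38% of the sum of the 4, lower on day 3 than on day 1, and miR-378c held 0.424%, 0.222% and 0.301%, lower on day 3 than on day 0. In the reads miR-378a-3p held 98.7%, 99.0% and 98.7%, so that the sum of the 4 had the log2 ratios of miR-378a-3p, -0.71 at day 1 and -2.07 at day 3. Whether reads of miR-378a-3p were counted for miR-378b or miR-378c was not tested.

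In the reads the arms of miR-378a gave the widest difference between members above 10 reads from day 0 to day 1 and from day 1 to day 3. From day 0 to day 3 the ratios of miR-378b (-2.18) and miR-378a-5p (-0.99) lay farther apart. There were 77.0 reads of miR-378a-3p per read of miR-378a-5p before injury (75.5 to 78.5), 123.2 on day 1 (118.8 to 127.7) and 36.3 by day 3 (35.3 to 37.2). As a share of the reads of both arms, miR-378a-5p made up 1.28% before injury (1.26 to 1.31), 0.805% on day 1 (0.777 to 0.835) and 2.68% by day 3 (2.62 to 2.75). The log2 change of the 3p to 5p ratio was 0.68 from day 0 to day 1 (0.62 to 0.74), -1.09 from day 0 to day 3 (-1.13 to -1.04) and -1.76 from day 1 to day 3 (-1.83 to -1.70).

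In the reads, arm ratios of other hairpins moved too. For 32 hairpins both arms had at least 100 reads in every library, miR-378a included. From day 0 to day 1 their change had a median of -0.08 (quartiles -0.73 and 0.64), and 7 hairpins changed by more than miR-378a in the direction of the 3p arm. From day 0 to day 3 the median was 0.00 (quartiles -0.71 and 0.32), and 7 hairpins changed further towards the 5p arm. This position holds for the reads only, where miR-378a changed by -1.09. In the expression values miR-378a changed by 0.19, towards the 3p arm, and its position in those values is not given here. From day 1 to day 3 the median was 0.05 (quartiles -0.85 and 0.34), and 1 hairpin, miR-434, lay below miR-378a with -2.12. This set of hairpins was chosen after the arm ratio of miR-378a was seen, and these positions are a description.

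**Figure D3:**
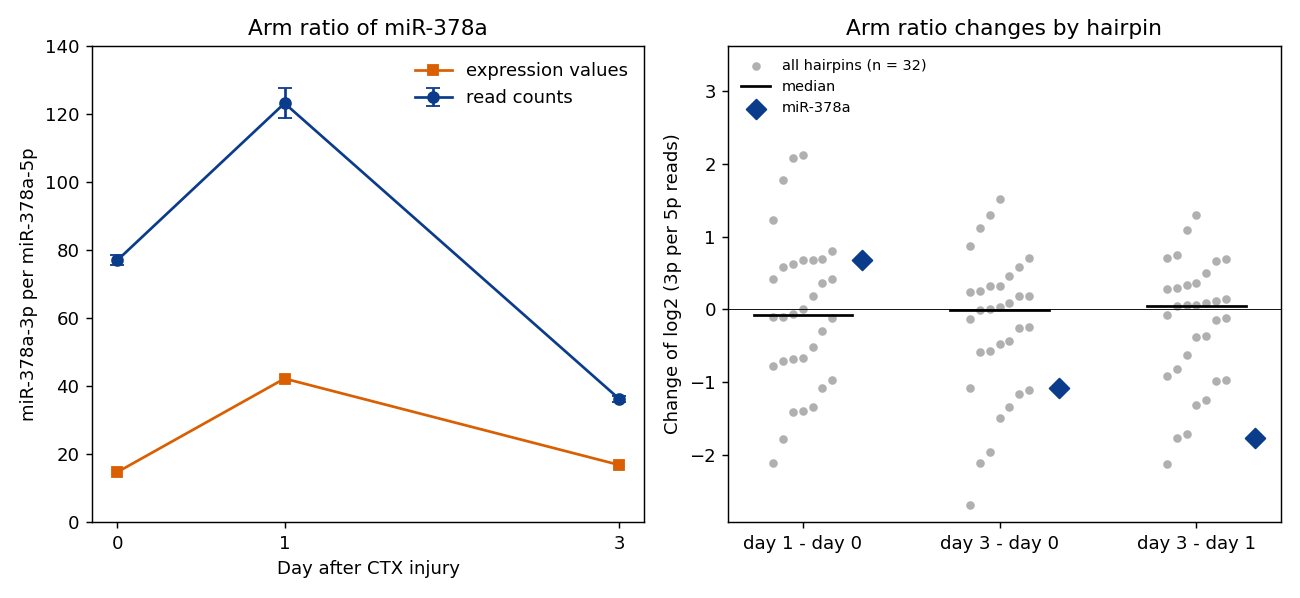
Left, miR-378a-3p per miR-378a-5p by day in the read counts, with 95% intervals, and in the deposited expression values. Right, change of the log2 ratio of 3p to 5p reads between days for 32 hairpins (grey points, black bar at the median) and for miR-378a (diamond). In the reads the ratio of miR-378a ends at 36.3, under its day 0 value of 77.0, whereas in the expression values it ends at 16.8, above 14.7.

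How the authors made the deposited expression value is not given in the sources used here. It is a whole number that falls below the read count as miRNAs become abundant, and it bears on miR-378a-3p more than on the other members. For miR-378a-3p it was 143048 before injury, 123374 on day 1 and 97925 by day 3, or 18.0%, 33.6% and 44.9% of its reads. For miR-378a-5p it was 93.9%, 98.0% and 96.7% of the reads, and for miR-378b and miR-378c between 93.7% and 100% on each day. The log2 ratio of miR-378a-3p to day 0 was therefore -0.21 at day 1 and -0.55 at day 3 in the expression values, and -0.44 and -1.06 when they were scaled to their total. The 3p to 5p ratio in these values was 14.7 before injury, 42.2 on day 1 and 16.8 by day 3. The log2 change of the arm ratio was 1.52 from day 0 to day 1 and -1.33 from day 1 to day 3, the directions found in the reads. From day 0 to day 3 it was 0.19, the opposite of the -1.09 in the reads, so the direction of that change depends on which deposited column is used.

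**Figure D4:**
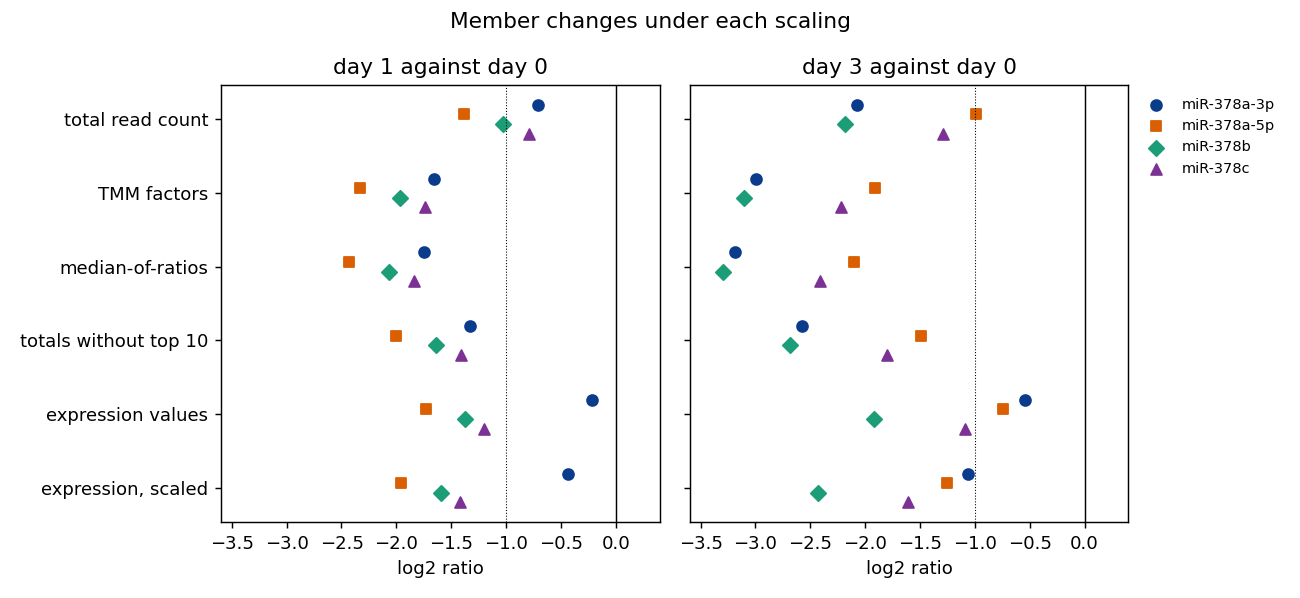
log2 ratio to day 0 on day 1 (left) and day 3 (right) of the 4 members with at least 10 reads, under each scaling of the reads and in the deposited expression values. Every point lies below 0, and miR-378a-3p lies nearest to 0 in the expression values.

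In tissue libraries, fewer cells of a type and less RNA per cell cannot be told apart, so markers of the cell types in muscle are given beside the family. miR-1a-3p and miR-133a-3p, the defining miRNAs of striated muscle, summed to 259456 CPM before injury, 86063 CPM on day 1 and 95436 CPM by day 3. Both were lower on each later day. In the expression values these drops were smaller. The log2 ratios to day 0 on days 1 and 3 were -0.26 and -0.08 for miR-1a-3p there, and -0.77 and -0.89 for miR-133a-3p. The labelled tissue was thus found in all libraries. All 6 of 6 leukocyte miRNAs (miR-223-3p, both arms of miR-142a, miR-150-5p, miR-155-5p and miR-342-3p) were above their day 0 CPM on day 1 and 5 of 6 on day 3, beside 75.4% and 76.8% of all tested miRNAs, with sums of 5149, 19499 and 7479 CPM. The 2 erythroid miRNAs (miR-451a and miR-144-3p) summed to 7142, 25326 and 12560 CPM and the 3 stromal ones (both arms of miR-199a and miR-214-3p) to 2020, 3692 and 6244 CPM. Both arms of the endothelial miR-126a summed to 59427, 132923 and 58732 CPM. With TMM factors 4 of 6 leukocyte miRNAs were above day 0 on each day, beside 56.8% and 59.1%, and the log2 ratio of the sum to day 0 turned from 0.54 to -0.39 for the leukocyte and from 0.81 to -0.11 for the erythroid miRNAs on day 3, and from 0.87 to -0.07 for the stromal ones on day 1. No marker was at 0 reads, and the part of these cell types in the change of miR-378 was not tested.

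Levels were also set against the summed reads of miR-1a-3p and miR-133a-3p, a comparison within each library. miR-1a-3p made up most of that sum, with 1987261 of 2207343 reads before injury, so the values mainly follow miR-1a-3p. There were 36.1 reads of miR-378a-3p per 100 reads of those 2 miRNAs before injury (35.97 to 36.16), 66.5 on day 1 (66.2 to 66.8) and 23.3 by day 3 (23.2 to 23.4). Relative to the sum of these markers miR-378a-3p was thus higher on day 1 than before injury, with a log2 change of 0.88 (0.88 to 0.89). By day 3 it was lower, with -0.63 (-0.64 to -0.62). For the expression values the corresponding numbers were 56.4, 65.6 and 48.4, with the same directions. There the day 3 log2 ratio of miR-378a-3p to day 0, -0.55, lay below the -0.08 of miR-1a-3p. It lay above the -0.89 of miR-133a-3p, so the lower day 3 value does not hold against miR-133a-3p alone. miR-378a-5p stood at 0.468 reads per 100 before injury (0.459 to 0.478), 0.540 on day 1 (0.521 to 0.560) and 0.643 by day 3 (0.627 to 0.660). Its day 1 log2 ratio to day 0 in the reads, -1.39, lay above the -1.66 of miR-1a-3p. It lay below the -1.08 of miR-133a-3p, so the day 1 rise does not hold against miR-133a-3p alone. In the expression values miR-378a-5p stood at 3.83, 1.55 and 2.87 per 100, so both changes from day 0 had the opposite direction there. From day 1 to day 3 it was higher in both columns. Its day 3 log2 ratio to day 0 in the expression values, -0.74, lay below that of miR-1a-3p and above that of miR-133a-3p.

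Myofiber miRNAs, of which 7 were listed, gave a nearer comparison than the whole library. On day 1, 5 of the 6 with enough reads were lower than on day 0 by a fold of 2 and none was higher, beside 12.0% and 55.3% of all tested miRNAs, and the median log2 ratio was -1.32 beside 1.28 over all of these. The log2 ratios on day 1 were -1.66 for miR-1a-3p, -1.08 for miR-133a-3p, -2.33 for miR-133b-3p, -1.37 for miR-206-3p, -1.26 for miR-486a-5p and -0.78 for miR-499-5p. The -0.71 of miR-378a-3p lay above all 6. In the expression values miR-1a-3p (-0.26) and miR-133a-3p (-0.77) fell short of the fold on day 1. There miR-499-5p (-1.17) passed it, as did miR-133b-3p, miR-206-3p and miR-486a-5p. On day 3, 4 of 7 were lower and 2 were higher, beside 10.0% and 58.5%, with a median of -1.41 beside 1.47. The lower ones were miR-1a-3p (-1.41), miR-133a-3p (-1.82), miR-486a-5p (-1.46) and miR-499-5p (-1.98), the last of which is made from an intron of a slow myosin gene. In the reads the -2.07 of miR-378a-3p lay below all of them. By the expression values its -0.55 lay below the -0.08 of miR-1a-3p. It lay above the -0.89 of miR-133a-3p, the -1.19 of miR-486a-5p and the -1.76 of miR-499-5p, so this order depends on the deposited column. In these values miR-1a-3p and miR-133a-3p were not lower by a fold of 2, while miR-486a-5p and miR-499-5p were. miR-206-3p, made by activated and differentiating muscle cells, was at 3.86 in the reads and at 1.41 in the expression values. miR-133b-3p from the same cluster was at 0.41 in the reads and at 0.59 in the expression values. Its ratio in the reads turned to -0.52 under TMM scaling and -0.71 under DESeq2's median-of-ratios scaling. With the 10 most abundant miRNAs left out of the totals it was -0.10. The other higher one was miR-208b-3p, at 1.12 from 4, 1 and 10 reads on days 0, 1 and 3, and it was below a fold of 2 under those 3 scalings.

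miRNAs with a known link to lipid, glucose or mitochondrial metabolism gave other values. Of a list of 11, 10 were listed in the files, and miR-696 was not analysed here. On day 1, 5 of the 9 with enough reads were higher than on day 0 and none was lower, beside 55.3% and 12.0% of all tested miRNAs, and the median log2 ratio was 1.36 beside 1.28. On day 3, 6 of 10 were higher and 1 was lower, beside 58.5% and 10.0%, with a median of 1.22 beside 1.47. With TMM factors 3 of the 9 were higher and 1 was lower on day 1, beside 35.2% and 24.2%. On day 3, 2 of the 10 were then higher (miR-370-3p and miR-210-3p) and 3 were lower (miR-338-3p, miR-181c-5p and miR-107-3p), beside 37.4% and 22.1%.

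Among its members, miR-33-5p, which lies in the sterol regulator gene Srebf2 and represses cholesterol export, had log2 ratios to day 0 of 1.36 at day 1 and 1.67 at day 3. miR-103-3p, from the pantothenate kinase genes, had 1.45 and 1.14, miR-23a-3p had 2.31 and 1.40, and the hypoxia miRNA miR-210-3p had 2.30 and 1.93 from 18 reads on day 0. miR-122-5p, the main miRNA of liver, had 2.26 and 1.30 from 55 reads. miR-338-3p had 0.36 and -1.26 and was the member that was lower on day 3. miR-181c-5p had 0.74 and -0.29. The other 3 had few reads, with 8, 4 and 101 on days 0, 1 and 3 for miR-370-3p, 14, 10 and 25 for miR-494-3p and 11, 16 and 7 for miR-107-3p. With TMM factors the ratios of miR-181c-5p on day 1, miR-338-3p on day 1 and miR-494-3p on day 3 turned from above 0 to below 0.

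The miRNAs with a course most like that of miR-378a-3p were sought among 212 miRNAs outside the family with at least 100 reads in every library, by the distance between the pairs of log2 ratios of days 1 and 3 to day 0. The nearest was miR-499-5p, at a distance of 0.12, with 316.1, 183.6 and 80.2 CPM on days 0, 1 and 3. The next were miR-30a-3p at 0.45, miR-133a-3p at 0.45, miR-29c-3p at 0.50 and miR-193b-3p at 0.65. None of these 5 was among the 5 nearest by the expression values, where miR-499-5p stood at place 86 of 212 with a distance of 1.54 and miR-151-5p was nearest at 0.10. In the reads all 5 were lower on day 1 than before injury and lower again by day 3. The nearest to miR-378a-5p were other miRNAs, namely miR-100-3p at 0.16, miR-30c-2-3p at 0.28, miR-329-3p at 0.29, miR-190a-5p at 0.32 and miR-328-3p at 0.32. miR-100-3p, with 64.2, 25.7 and 29.2 CPM, was lowest on day 1 as miR-378a-5p was. The 5 nearest to miR-378a-5p were the same by the expression values. These distances rest on 3 libraries and describe likeness of course only.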

How the data were processed

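A small RNA library per time point (day 0, day 1 and day 3), each a pool of 4 TA muscle samples, was assigned to its day from the labels. Reads came from the BGISEQ platform and had been aligned by the authors to GRCm38.p6. HISAT and Bowtie2 are named in the submitters' processing notes without versions. The authors deposited raw read counts per mature miRNA, and the deposited second column of expression values was treated as a score because how it was made is not given in the sources used here.

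Read counts were divided by the library total. Counts under 3 were set to 3 reads in ratios between all miRNAs. Library totals were 8507580, 6421056 and 9795076 reads, and 3 reads corresponded to 0.353, 0.467 and 0.306 CPM. No replicate model can be fitted with 1 library per time point, so the log2 ratio with a 95% Wald interval was used. The interval was tried only on simulated counts with Poisson noise. Such counts hold no PCR duplication and no spread between mice, so that trial cannot show that the interval covers either. Fisher's exact test on the reads, adjusted by the Benjamini-Hochberg method over all miRNAs tested, was an alternative and compares libraries, not conditions. The miRNAs named were the members, those of the myofiber, metabolism and cell type marker lists, and the 5 nearest to each arm of miR-378a; miR-434 and miR-151-5p were named after their values were seen. The members and lists were chosen with earlier results of these data known. Alternatives were TMM and median-of-ratios scaling, totals that leave out the 10 most abundant miRNAs, the expression values, a pseudocount of 1 CPM, minimums of 1 and 100 reads, a fold of 1.5, the test at an adjusted p of 0.001 and the sum of the 4 near-identical members. Positions came from GENCODE M21 and RefSeq. The analysis used Python 3.11.15, pandas 2.3.3, scipy 1.17.1, R 4.3.3, edgeR 4.0.16 and DESeq2 1.42.0.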

Additional observations from a re-analysis of the deposited data

How the results depend on the processing

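Each value rests on 1 library per time point, so a difference of pool or preparation cannot be told apart from a difference of day. No paired analysis was possible because each time point has 1 library.

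Relative to day 0, the ratios of the 4 members with at least 10 reads were negative under every alternative tried. With TMM scaling, median-of-ratios scaling and totals lacking the 10 most abundant miRNAs, the log2 ratio of miR-378a-3p was -1.65, -1.75 and -1.33 on day 1, -2.998, -3.19 and -2.58 on day 3, and -1.34, -1.44 and -1.25 from day 1 to day 3. That of miR-378a-5p was -2.33, -2.43 and -2.004 on day 1 and -1.91, -2.11 and -1.49 on day 3. From day 1 to day 3 it was 0.32 under median-of-ratios scaling and 0.51 under totals lacking the 10 most abundant miRNAs. In the expression values miR-378a-3p was at -0.21, -0.55 and -0.33 in the 3 comparisons, and miR-378a-5p at -1.73, -0.74 and 0.99. With these values scaled to their total, a setting chosen after the data were seen, the ratios were -0.44, -1.06 and -0.62 for miR-378a-3p and -1.96, -1.25 and 0.70 for miR-378a-5p.

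The number of members lower than on day 0 was 4 on day 1 and on day 3 with each of the 3 other scalings of the reads and with a fold of 1.5. Of all tested miRNAs, 25.9% and 24.8% were then lower under median-of-ratios scaling and 20.7% and 16.3% under totals lacking the 10 most abundant miRNAs. With the 4 near-identical members summed it was 1 of the 2 remaining in each of the 3 comparisons, beside 11.9%, 9.70% and 17.6%. In the expression values it was 3 on day 1, 2 on day 3 and 0 from day 1 to day 3, against 2, 3 and 2 in the reads, beside 16.5%, 7.73% and 9.95% of all tested miRNAs. With a minimum of 1 read, 1 member (miR-378d, 3 to 7 reads) was higher on day 1, beside 35.4% of all tested miRNAs, and 3 members (miR-378a-3p, miR-378b and miR-378d) were lower from day 1 to day 3, beside 144 of the 1104 tested. The members called at a minimum of 10 reads with totals as the scaling were also called when an adjusted p of 0.001 was asked for. Their read depth makes that outcome likely, and the adjusted p was not run on the other settings.

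The 3p to 5p ratio of miR-378a in the expression values was 14.7, 42.2 and 16.8 on days 0, 1 and 3. Its log2 change was 1.52 from day 0 to day 1, -1.33 from day 1 to day 3 and, reversed, 0.19 from day 0 to day 3. Per summed miR-1a-3p and miR-133a-3p, the log2 change of miR-378a-5p from day 0 reversed to -1.30 on day 1 and -0.41 on day 3. Relative to miR-378a-3p, the log2 difference reversed to -0.55 for miR-378c from day 0 to day 3 and to -0.21 for miR-378b from day 1 to day 3. The cause was not tested. The scalings of the lists and marker sums and the differences between members, the order within the myofiber list and the likeness in the expression values were added after the data were seen.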
